A study of Zea mays with 45 samples.

Results

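The photosystem and electron transport genes of the maize arrays described here were psbs1, lhcb5, Cab-m7, psaN, L-FNRI, pgr5 and ftr1. They were chosen by the gene symbol of their probes or by the current maize symbol of the gene that the annotation gives for a probe. These 7 genes are among 329 genes named on the arrays. Each had 1 probe in each of 2 array tables, except Cab-m7, which had 2, so there were 8 probes of 5640 in one table and 8 of 5760 in the other. A probe was a run of 3 neighbouring spots of the same cDNA.

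Photosystem II and photosystem I of the thylakoid membrane collect light through chlorophyll-binding antenna proteins and pass electrons to ferredoxin. Ferredoxin hands them on to NADP+ for carbon fixation, back to the membrane in cyclic electron flow, or to the thioredoxins that switch enzymes of the chloroplast in the light. Photosystem II is a known target of ultraviolet-B (UV-B) damage in leaves.

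Spotted cDNA arrays read in 2 colours gave the log2 ratio of a pair of leaf RNAs of maize. Leaves under solar UV-B, outdoors under plastic that passes UV-B, were set against leaves under polyester that removes it, in the inbred W23 (its b,pl stock was taken with W23 as 1 line) and in 5 landraces, Mishca, Conico, Confite, Cacahuacintle and Arrocillo. Leaves under supplemental UV-B from lamps were set against leaves under solar UV-B in the same 6 lines. Landrace leaves were also set against W23 leaves under the same treatment, with or without UV-B: Conico, Arrocillo and Cacahuacintle in one table, and Confite and Mishca, from greenhouse plants given 8 h under UV-B lamps or under the same lamps covered with polyester, in the other. The labels do not say whether replicate arrays came from separate plants, so p-values measure the spread between arrays, which may be technical. Cacahuacintle arrays carried labels for 1 array with and 3 without UV-B, whereas Arrocillo and Conico had 2 of each.

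Of 45 deposited columns, 8 held the values of another column, shifted by a fixed amount and labelled with the channels exchanged, and the third W23 solar column was the mean of the other W23 columns (SD of the difference 0.0323). This left 36 distinct arrays, of which 9 belonged to the solar comparison, 8 to the supplemental one, 12 to the table with Conico, Arrocillo and Cacahuacintle, and 7 to Mishca and Confite. The labels and files do not say which RNA is the numerator, so values are described by the positive or negative side of the deposited ratio and never as higher or lower in a treatment. Arrays of opposite channel order were read as running the same way, since the repeated and averaged columns were deposited with no change of sign. Even so, 3 of 9 pairs of solar arrays of opposite order, and 1 of 4 supplemental pairs, correlated below -0.30 over all probes (lowest -0.53 and -0.32). The direction is therefore not settled, and values with opposite orders turned are given beside each comparison. The turned values use only lines, or groups of a landrace and treatment, that have arrays of both orders. Against W23 they leave out the Cacahuacintle array with UV-B and the Mishca array without. In the comparisons with W23 no pair of opposite order correlated below -0.30. For Arrocillo, Cacahuacintle and Conico the lowest of 36 such pairs was -0.16 (median 0.28), and for Confite and Mishca the lowest of 9 was -0.18 (median 0.04). Each array was centred on its median. Position mattered too: with the spots in 16 sections of consecutive numbers, section explained between 12.7% and 53.1% of the variance of a solar array, and values with each section centred are given where they differ. With sections centred, 2 of 9 solar pairs and 0 of 4 supplemental pairs of opposite order correlated below -0.30.

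In the solar comparison 5 of the 8 probes were called at an adjusted p under 0.05, all on the positive side: psbs1, lhcb5, the first Cab-m7 probe, L-FNRI and pgr5. Over all 4239 probes tested 35% were called (16.9% positive, 18.1% negative). With sections centred ftr1 was called too, making 6 of 8, all positive, where 38.4% of all probes were called and 17.5% were called positive. The median log2 ratio of the 8 probes was 0.22, against 0.0055 over all probes tested. In the section of psbs1 and lhcb5, 67 of 260 probes tested were called positive and 10 negative (median log2 ratio 0.105). In that of the first Cab-m7 probe, 121 of 249 were positive and 9 negative (median 0.17). In that of L-FNRI and pgr5, 32 of 267 were positive and 55 negative (median 0.00098). The psaN, ftr1 and second Cab-m7 probes did not pass the test. Without the channel term in the fit no member was called, and 11 probes were called in all. Arrocillo, Confite and Cacahuacintle had 1 solar array each. The spread between arrays therefore came from W23, Conico and Mishca alone, with 2 residual degrees of freedom. Lines were fitted as fixed, so the solar standard errors and intervals do not hold the spread between lines.

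The psbs1 gene encodes PsbS, the photosystem II protein that senses an acid thylakoid lumen and sets off the harmless release of excess light energy as heat. Its log2 ratios were 0.40 and 0.16 in W23, 0.69 and 0.29 in Conico, 0.93 and -0.04 in Mishca, 1.06 in Arrocillo, 0.57 in Confite and 0.47 in Cacahuacintle. Thus 8 of 9 arrays lay on the positive side, with Arrocillo farthest out and a single Mishca array just below 0. The fitted mean over lines was 0.55 (SE 0.07, 95% confidence interval 0.39 to 0.72, adjusted p = 0.00659), a ratio of 1.47, and it was 0.44 with sections centred (adjusted p = 0.00397). With sections centred all 9 arrays were positive, from 0.19 to 0.90. The channel term of psbs1 was 0.27 (adjusted p = 0.0494), and 0.08 with sections centred (adjusted p = 0.2485). Over all probes tested 28.9% had a called channel term, and 6.49% with sections centred.

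The lhcb5 gene encodes CP26, a minor antenna protein of photosystem II. It gave 0.22 and 0.08 in W23, 0.78 and 0.49 in Conico, 0.38 and -0.30 in Mishca, 0.77 in Arrocillo, 0.51 in Confite and 0.61 in Cacahuacintle. Only the second Mishca array was negative, and W23 and Mishca lay nearest to 0. The fitted mean was 0.45 (SE 0.06, adjusted p = 0.00659), and 0.34 with sections centred (adjusted p = 0.00519). On psbs1 and lhcb5, which sit in the same section of the array, values moved together over 20 arrays of the table (Pearson r = 0.86, or 0.68 with sections centred). In the other table, where they lie in different sections, r was 0.39 over 11 arrays, or 0.68 with sections centred.

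Cab-m7 encodes a chlorophyll a/b-binding antenna protein, and its 2 probes did not give the same answer. The first probe had log2 ratios of 0.51, 0.65 and 0.60 in Arrocillo, Cacahuacintle and Confite. In the other 3 lines its sign followed the channel order, with 0.23 and -0.26 in W23, 0.43 and -0.56 in Conico and 0.70 and -0.41 in Mishca. Its fitted mean was 0.30 (SE 0.06, adjusted p = 0.0161), and its channel term was larger, at 0.43 (adjusted p = 0.0159). With sections centred the mean was 0.12 (adjusted p = 0.0385) and the channel term was 0.13 (adjusted p = 0.0946). The second probe had a mean of 0.06 (SE 0.04, adjusted p = 0.333) and likewise changed sign with channel order in Conico and Mishca. Its channel term was 0.20 (adjusted p = 0.0323). The lines with arrays of both orders alone gave the first probe a mean of -0.03 with sections centred, on the other side of 0.

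The psaN gene encodes a subunit on the lumen side of photosystem I. Its solar log2 ratios ran from -0.27 in Cacahuacintle to 0.22 on a W23 array, with a median of 0.08. They straddled 0, and the fitted mean was 0.02 (SE 0.04, 95% confidence interval -0.08 to 0.13, adjusted p = 0.72).

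**Figure D1:**
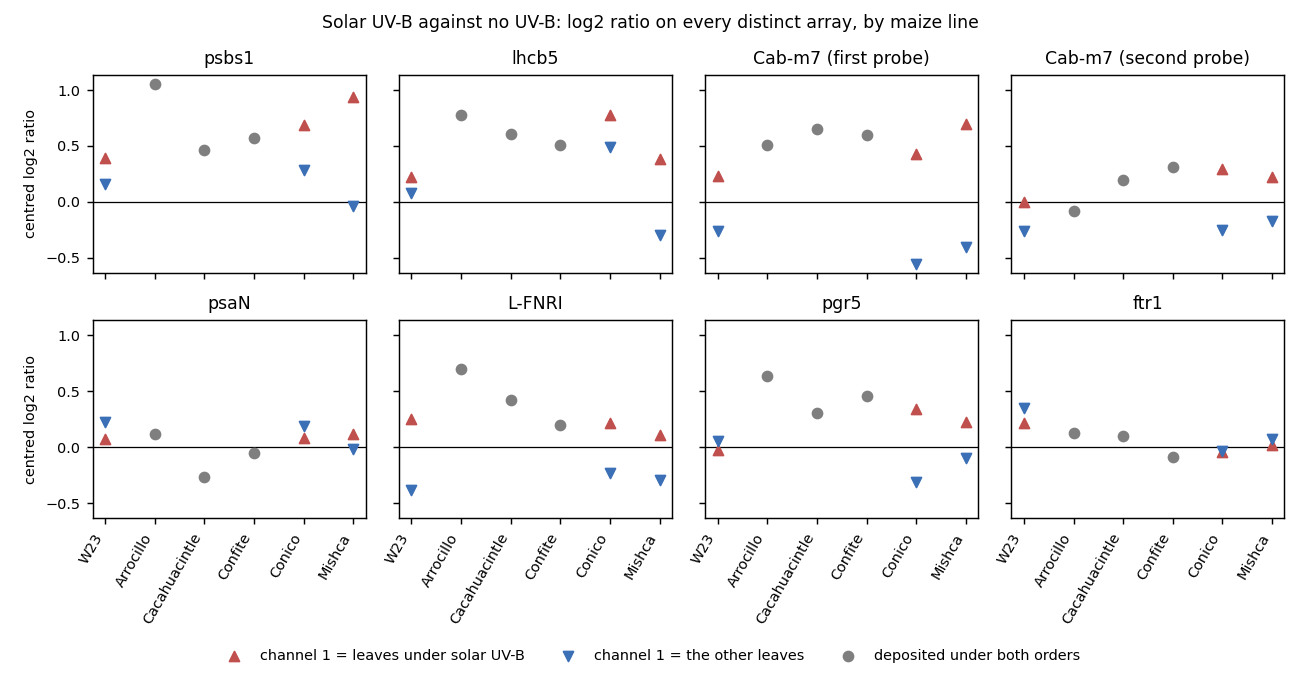
Centred log2 ratio (vertical axis) of the 8 probes on each of the 9 distinct solar arrays, by maize line (horizontal axis). Upward triangles are arrays with the solar UV-B leaves in channel 1, downward triangles arrays of the opposite order, and grey circles columns deposited under both orders. For psbs1 and lhcb5, 8 of 9 points lie above 0, and for the first Cab-m7 probe the triangles lie on opposite sides of 0.

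On the acceptor side of photosystem I, L-FNRI encodes a leaf ferredoxin-NADP+ reductase, which makes NADPH. It had 0.70, 0.42 and 0.20 in Arrocillo, Cacahuacintle and Confite, and 0.25 and -0.38 in W23, 0.22 and -0.24 in Conico, and 0.11 and -0.29 in Mishca. As for the first Cab-m7 probe, the sign followed channel order in every line with arrays of both orders. The channel term of L-FNRI was 0.25 (adjusted p = 0.019). The fitted mean of 0.19 (SE 0.04) had an adjusted p of 0.0185, and W23, Conico and Mishca alone, the lines with both orders, gave -0.05 (adjusted p = 0.41). The call held in 4 of 9 fits that left out 1 array. It ended without the Arrocillo array, where the mean was 0.091 (adjusted p = 0.15), and without the Cacahuacintle array, either Conico array or the second Mishca array, where it was 0.147 to 0.198.

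The pgr5 gene encodes a protein that in Arabidopsis is required for cyclic electron flow around photosystem I. It gave 0.64 in Arrocillo, 0.46 in Confite, 0.31 in Cacahuacintle, 0.34 and -0.31 in Conico, 0.23 and -0.10 in Mishca, and -0.03 and 0.06 in W23. The fitted mean was 0.25 (SE 0.07, adjusted p = 0.0329), with 6 of 9 arrays positive. Without the Arrocillo array the mean was 0.17 and no longer called (adjusted p = 0.117), and the call also ended without the Confite array (0.21) or the first Conico array (0.21).

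Ferredoxin-thioredoxin reductase, encoded by ftr1, passes electrons from ferredoxin to thioredoxins. Its solar values were close to 0, from -0.09 in Confite to 0.35 on a W23 array. Both W23 arrays were positive (0.21 and 0.35), and W23 alone gave a mean of 0.28 (SE 0.08, adjusted p = 0.0461 over the probes of that line, where 1011 of 4239 were called). The mean over lines was 0.07 (SE 0.04, adjusted p = 0.193), and 0.16 with sections centred, where it was called (adjusted p = 0.0129).

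A test of differences among the 6 lines in the solar comparison called none of the 8 probes, with adjusted p between 0.0656 for L-FNRI and 0.273 for psaN. The same test called 1 of the 4239 probes in all. Arrocillo, Confite and Cacahuacintle entered it with 1 array each and were assumed to vary like the other lines. At an unadjusted p under 0.05 it called 1751 probes, among them lhcb5, the first Cab-m7 probe and L-FNRI. With sections centred it called 784 probes and again no member. When arrays of opposite channel order were turned, over the lines with both orders, no member was called and psbs1 had a value of 0.27 (adjusted p = 0.321).

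In the supplemental comparison 3 of the 8 probes were called: ftr1 on the positive side, and psbs1 and L-FNRI on the negative side. Over all 4744 probes tested 31.7% were called (15.5% positive, 16.2% negative). With sections centred 3 were called as well, ftr1 positive and L-FNRI and pgr5 negative, where 29.9% of all probes were called (16.4% positive, 13.5% negative). The 8 probes had a median log2 ratio of -0.18, against -0.0083 over all probes. Without the channel term in the fit, psbs1 kept its mean of -0.31 with an adjusted p of 0.345, and no member was called. Leaves under solar UV-B enter both comparisons, so the values of the 2 comparisons may not be independent.

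For psbs1 the log2 ratio was -0.54 in W23, -0.64 in Mishca, -0.56 in Arrocillo, -0.67 in Cacahuacintle, 0.27 and 0.30 in Confite, and -0.33 and 0.82 in Conico. The 4 negative lines are those with 1 column deposited under both channel orders, and 3 of the 4 arrays with a single order were positive. The fitted mean was -0.31 (SE 0.09, adjusted p = 0.0128), and the call ended without the Mishca (-0.25) or Cacahuacintle array (-0.24). With sections centred the mean was -0.16 (adjusted p = 0.0743). Confite and Conico alone gave 0.27, or 0.24 with sections centred. The test of differences among lines gave an adjusted p of 0.0204, or 0.0393 with sections centred. In it 4 of the 6 lines had 1 array each and were assumed to vary like Confite and Conico, with 1 residual degree of freedom, which holds for the other members too.

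For lhcb5 the values were -0.35 in W23, -0.48 in Mishca, -0.17 in Arrocillo, -0.0013 in Cacahuacintle, 0.30 and 0.39 in Confite, and -0.49 and 0.58 in Conico. They lay on both sides of 0, with a mean of -0.10 (SE 0.08, adjusted p = 0.37) that turned to 0.05 with sections centred. In the section that holds psbs1 and lhcb5, 117 of 312 probes tested were called negative and 13 positive, and its median log2 ratio was -0.15.

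The first Cab-m7 probe had -0.60 in W23, -0.74 in Arrocillo, -0.55 in Cacahuacintle and 0.44 in Mishca. Confite gave -0.25 and 0.68 and Conico -0.38 and 0.56, again with opposite signs for opposite channel orders. Its mean was -0.19 (SE 0.07, adjusted p = 0.055), and the channel term was -0.47 (adjusted p = 0.00358), where 24% of all probes had a called channel term. The test among lines gave an adjusted p of 0.0072, but 0.288 with sections centred. With sections centred every array lay within -0.24 and 0.19, and neither the mean of -0.05 (adjusted p = 0.455) nor the channel term of -0.06 (adjusted p = 0.602) was called. The second probe ranged from -0.44 to 0.32, with a mean of -0.06 (adjusted p = 0.582). For psaN the range was -0.66 in Mishca to 0.17, and the mean of -0.17 (adjusted p = 0.0961) was 0.03 with sections centred.

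L-FNRI gave -0.43 in W23, -0.44 in Mishca, -0.31 in Arrocillo, -0.18 in Cacahuacintle, -0.19 and 0.19 in Confite, and -0.12 and 0.15 in Conico. The mean of -0.23 (SE 0.07) had an adjusted p of 0.0269, and it was -0.37 with sections centred (adjusted p = 0.00255). The call held in 1 of the 4 fits that left out 1 array and ended without the W23 (-0.18), Mishca (-0.18) or Arrocillo array (-0.21). Confite and Conico alone, the lines with both channel orders, gave 0.0064.

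For pgr5, 7 of 8 arrays were negative, from -0.41 to 0.05. Its mean of -0.20 (SE 0.08) missed the threshold (adjusted p = 0.0502). With sections centred all 8 arrays were negative, from -0.68 in Mishca to -0.05 in Conico, and the mean of -0.35 was called (adjusted p = 0.00265). Both L-FNRI and pgr5 lie in a section where 111 of 303 probes tested were called positive and 12 negative, so these probes stood at percentiles 3.63 and 3.96 of their section.

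The ftr1 probe stood on the other side. Its log2 ratios were 1.15 and 0.66 in Conico, 0.41 and 0.41 in Confite, 0.44 in Arrocillo, 0.43 in Mishca, 0.32 in W23 and -0.39 in Cacahuacintle. Thus 7 of 8 arrays were positive, with both Conico arrays above all others and Cacahuacintle alone below 0. The mean over lines was 0.35 (SE 0.08, 95% confidence interval 0.19 to 0.51, adjusted p = 0.00254), a ratio of 1.28, and 0.22 with sections centred (adjusted p = 0.0163). Conico alone gave 0.91 (SE 0.15, adjusted p = 0.00148 over the probes of that line, where 201 of 4744 were called), and the test among lines gave an adjusted p of 0.0206, or 0.0102 with sections centred. Unlike the first Cab-m7 probe, it gave the same sign under both channel orders in Confite and in Conico, and its channel term was 0.12 (adjusted p = 0.413). With opposite orders turned, over Confite and Conico alone, its mean was 0.12 (adjusted p = 0.647), and none of the 8 probes was called. That turned mean is the same quantity as the channel term.

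**Figure D2:**
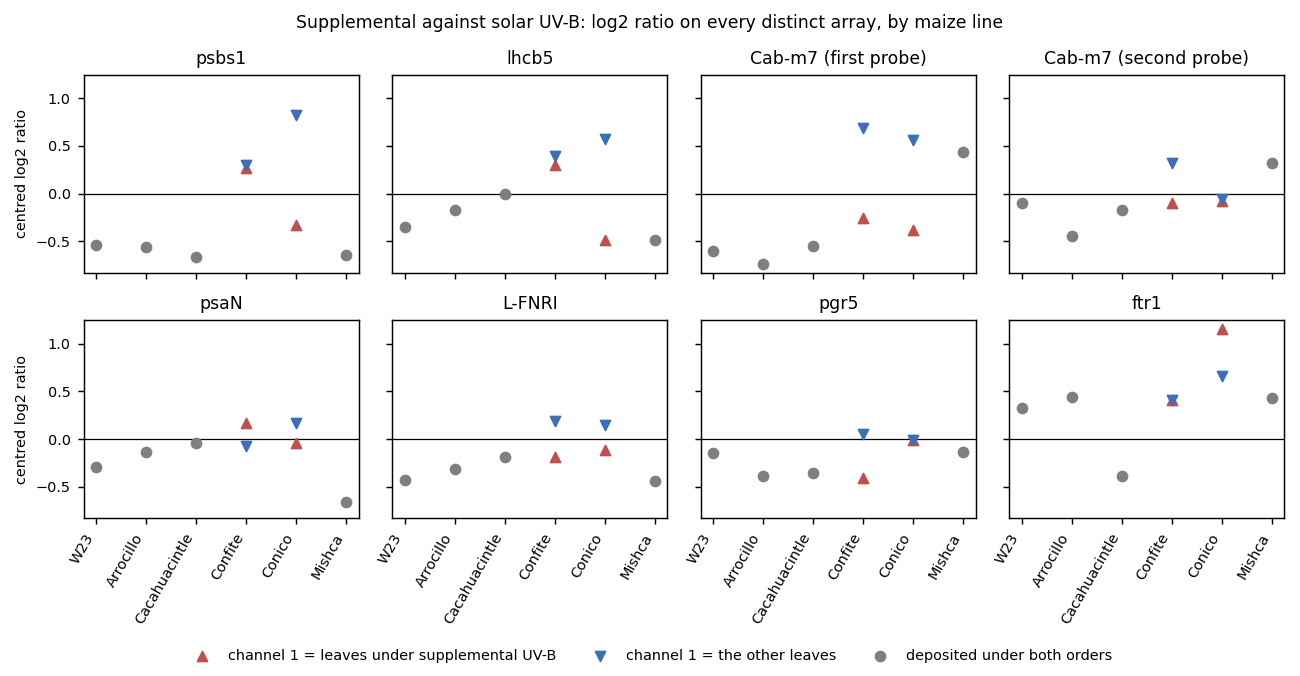
Centred log2 ratio (vertical axis) of the 8 probes on each of the 8 distinct supplemental arrays, by maize line (horizontal axis), with upward triangles for arrays with the supplemental UV-B leaves in channel 1, downward triangles for the opposite order and grey circles for columns deposited under both orders. For ftr1, 7 of 8 points lie above 0, and for psbs1 the 4 grey circles lie between -0.67 and -0.54.

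Among Arrocillo, Cacahuacintle and Conico against W23, 5 of the 8 probes were called: lhcb5, ftr1 and psaN on the negative side, and L-FNRI and pgr5 on the positive side. Over all 5353 probes tested 25.6% were called (13.4% positive, 12.1% negative). With sections centred 7 were called, with psbs1 added on the positive side and the second Cab-m7 probe on the negative side, where 34.1% of all probes were called (17.4% positive, 16.7% negative). The 8 probes had a median size of 0.30 on the log2 scale, against 0.12 over all probes.

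The lhcb5 probe was negative on all 12 arrays when each array was centred on its median. It gave -1.37 and -0.35 with UV-B and -1.23 and -0.02 without in Arrocillo, -1.42 with UV-B and -1.27, -0.57 and -0.98 without in Cacahuacintle, and -0.62 and -0.72 with UV-B and -0.57 and -0.34 without in Conico. The values spread widely within Arrocillo, and with sections centred its second array without UV-B was on the positive side, at 0.14. In Arrocillo and in Cacahuacintle the arrays with W23 in channel 1 were the farther from 0. The fitted mean was -0.80 (SE 0.09, adjusted p = 3.518e-05), a 1.74-fold difference on the negative side, and -0.75 with sections centred. By landrace it was -0.74 in Arrocillo, -1.08 in Cacahuacintle and -0.56 in Conico. Its channel term was 0.28 (adjusted p = 0.0532), and 0.39 with sections centred (adjusted p = 0.0168), where 20.6% of all probes had a called channel term. Turning the arrays of opposite order gave 0.25 (adjusted p = 0.0521).

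The ftr1 probe was negative on all 12 arrays as well. It gave -0.30 and -0.70 with UV-B and -0.85 and -0.72 without in Arrocillo, -0.68 with UV-B and -1.01, -0.70 and -1.03 without in Cacahuacintle, and -0.56 and -0.51 with UV-B and -0.94 and -0.88 without in Conico. Its mean was -0.72 (SE 0.07, 95% confidence interval -0.87 to -0.58, adjusted p = 7.034e-06), a 1.65-fold difference on the negative side, and the landraces gave -0.64, -0.80 and -0.72. Its channel term was 0.0041 (adjusted p = 0.97), and leaving out any single array kept the mean between -0.76 and -0.67. Turned by channel order the mean was -0.0093.

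For ftr1 the arrays with UV-B ran from -0.70 to -0.30, and those without from -1.03 to -0.70, so that the groups met at their edges. The difference, with minus without UV-B, was 0.30 (SE 0.14). Its unadjusted p was 0.0498 and its adjusted p 0.969, so it failed the correction over all probes. No probe of the 5353 was called for that difference with limma, and 257 had an unadjusted p under 0.05. With sections centred it was 0.29 (unadjusted p = 0.0171, adjusted p = 0.475), where 7 probes were called and 429 had an unadjusted p under 0.05. The other 7 probes had differences between -0.43 for L-FNRI and -0.0098 for psbs1, none called.

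The psaN probe was negative on 11 of 12 arrays, from -0.58 to 0.16, with a mean of -0.23 (SE 0.07, adjusted p = 0.0242) and -0.24 with sections centred (adjusted p = 0.00266). The call held in 6 of the 12 fits that left out 1 array and ended without either Arrocillo array without UV-B or any of the 4 Conico arrays, with means of -0.236 to -0.229. Turned by channel order, the mean was 0.18 (adjusted p = 0.0264). Its 3 spots agreed less well than those of other members, with a median SD of 0.144 within the probe, against 0.0219 for ftr1.

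**Figure D3:**
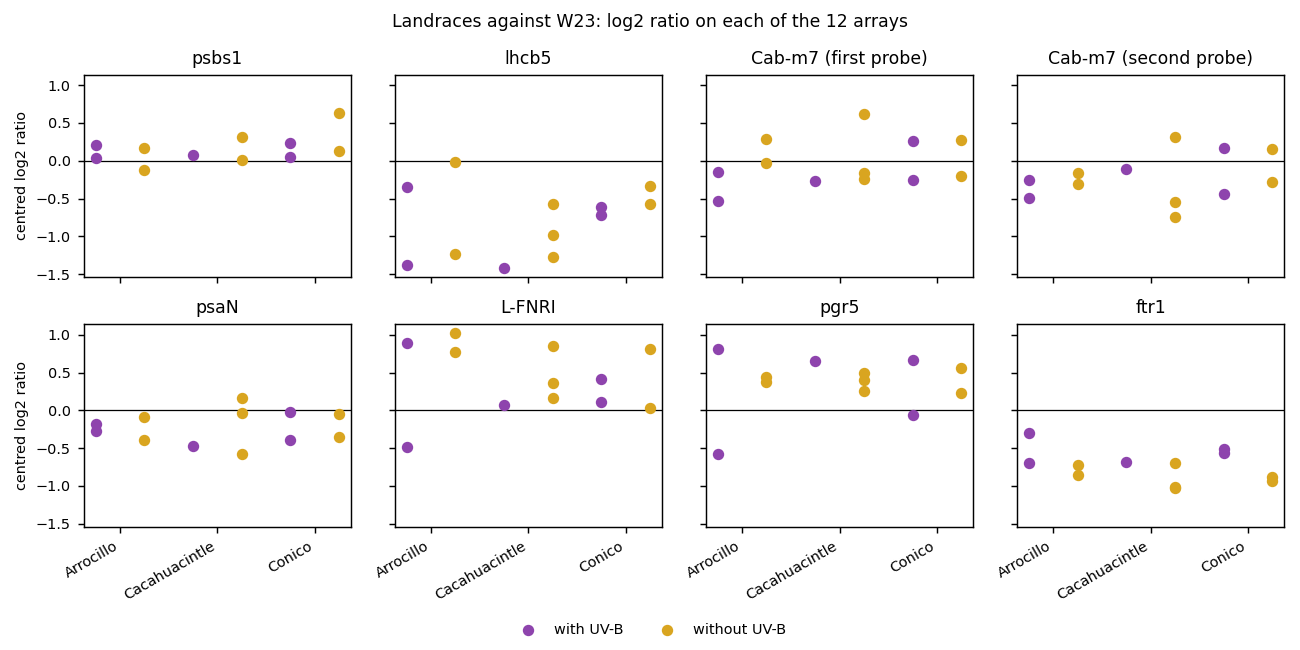
Centred log2 ratio (vertical axis) of the 8 probes on the 12 arrays of Arrocillo, Cacahuacintle and Conico (horizontal axis) against W23, with purple points for arrays with UV-B, left, and yellow points for arrays without. All 12 points of lhcb5 and of ftr1 lie below 0.

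L-FNRI and pgr5 were on the positive side. L-FNRI gave -0.49 and 0.89 with UV-B and 0.78 and 1.02 without in Arrocillo, 0.07 with UV-B and 0.85, 0.17 and 0.36 without in Cacahuacintle, and 0.41 and 0.10 with UV-B and 0.82 and 0.03 without in Conico. Only 1 of 12 arrays was negative, and the mean was 0.38 (SE 0.12, adjusted p = 0.0347). For pgr5, 10 of 12 arrays were positive, from -0.58 to 0.80, with a mean of 0.38 (SE 0.11, adjusted p = 0.0263). With sections centred the means were 0.46 and 0.45 (adjusted p = 0.00136 and 0.000489), and the same Arrocillo array, the first with UV-B, was the only one below 0 for either gene. These 2 probes lie in the same section. Leaving out any 1 of 5 arrays ended the calls of both: either Arrocillo array without UV-B, the first Cacahuacintle array without UV-B, or the first Conico array with or without UV-B. In all, the call held in 5 of the 12 fits that left out 1 array for L-FNRI and in 6 of 12 for pgr5, and the means ran from 0.217 to 0.51 and from 0.222 to 0.499. The lowest means, 0.217 (adjusted p = 0.0686) and 0.222 (adjusted p = 0.0391), came when the Arrocillo array numbered 2 among those with UV-B was left out. Turned by channel order, the means were -0.04 and 0.01.

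The psbs1 probe had a mean of 0.15 (SE 0.07, adjusted p = 0.149) over 11 arrays, 10 of them positive, from -0.12 to 0.63, and 0.20 with sections centred (adjusted p = 0.0223). The Cab-m7 probes had means of -0.08 (adjusted p = 0.57) and -0.23 (adjusted p = 0.0584). Neither they nor any other member differed among the 3 landraces by limma's test, where the smallest adjusted p was 0.98 and 6 probes in all were called. At an unadjusted p the smallest value was 0.109, for lhcb5.

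Confite and Mishca against W23 gave fewer measurements, since up to 72.6% of spots were blank on an array. Of the 8 probes 4 could be tested and none was called, where 1.63% of 2089 probes tested were called. In this fit 1 spread was shared by all probes. The SE was 0.175 for both L-FNRI and the first Cab-m7 probe, and 0.20 for both psbs1 and pgr5. The p-values of this comparison therefore do not measure a probe's own spread between arrays. The psbs1 probe had the largest mean, 0.61 (SE 0.20, adjusted p = 0.12, unadjusted p = 0.00242). It gave 1.13 and 0.34 with UV-B and 0.90 without in Confite, and 0.13 and -0.05 with UV-B and 0.60 without in Mishca. Its values were positive on 5 of 6 arrays. The L-FNRI mean was -0.23 (adjusted p = 0.996), with 2 of 7 arrays positive, and the means of the first Cab-m7 probe and pgr5 were -0.14 and 0.11. Turned by channel order, the psbs1 mean was -0.07 (adjusted p = 0.901).

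Measured on 4 arrays and so not tested, ftr1 gave 0.13 with UV-B and 0.43 without in Confite, and 0.49 and 1.24 with UV-B in Mishca. All 4 were positive, whereas the 12 arrays of the other landraces were all negative. The tables were made separately, the direction of either ratio is not settled, and this difference was not tested. For lhcb5 the 3 values were 0.22 with UV-B and 0.43 without in Confite, and -0.01 with UV-B in Mishca. The psaN probe ranged from -0.32 to 0.22 on 4 arrays and the second Cab-m7 probe from -0.13 to 0.01 on 4.

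**Figure D4:**
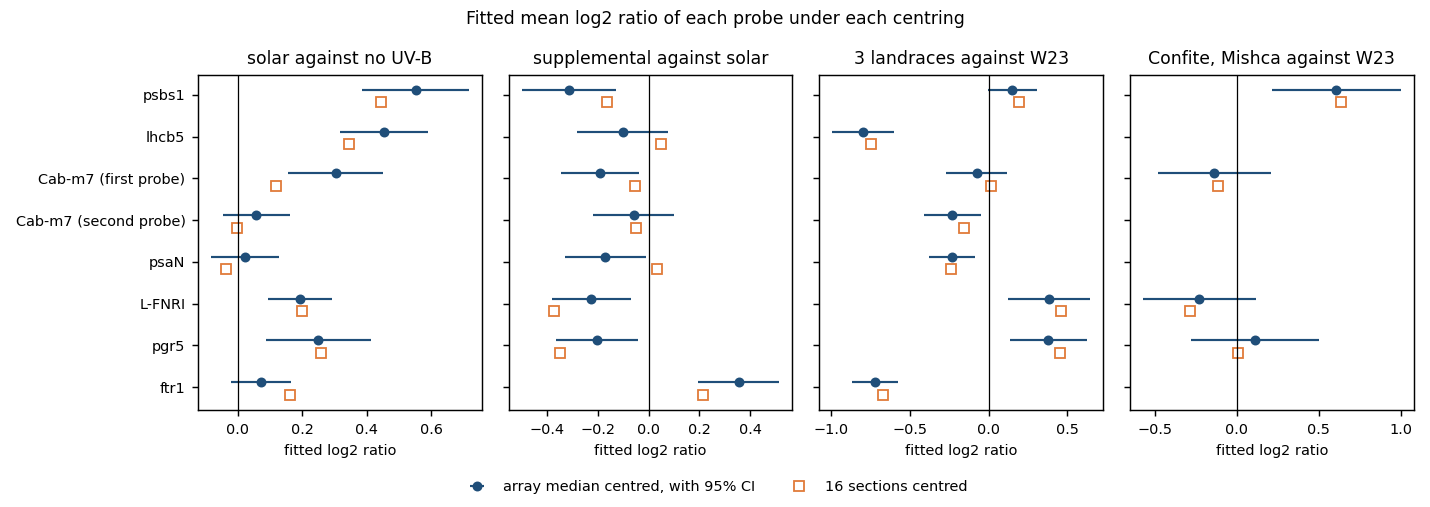
Fitted mean log2 ratio (horizontal axis) of the 8 probes (vertical axis) in the 4 comparisons, as filled circles with 95% confidence intervals after centring each array and as open squares after centring 16 sections. The psbs1 circle lies at 0.55 in the solar panel and -0.31 in the supplemental panel, and ftr1 lies at 0.35 in the supplemental panel and -0.72 in the panel of 3 landraces.

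Other genes of light-regulated carbon fixation, taken from a fixed list, were counted in the same fits. They were ssu1 (Rubisco small subunit), rca1 (Rubisco activase), pdk1 (pyruvate, phosphate dikinase), pdrp1 (its regulatory protein), GAPA (chloroplast glyceraldehyde-3-phosphate dehydrogenase) and gpb1, named by its symbol, with 7 probes in all. The list held no antenna, photosystem, ferredoxin, plastocyanin or cytochrome b6f gene, and whether the arrays name others was not recorded. In the solar comparison 2 of 6 probes tested were called, where 35% of all probes were, both positive: pdk1 at 0.30 (SE 0.07, adjusted p = 0.025) and gpb1 at 0.31 (SE 0.07, adjusted p = 0.0223). With sections centred 4 were called, where 38.4% of all probes were, with ssu1 added at 0.10 (adjusted p = 0.0465) and pdrp1 at -0.16 (adjusted p = 0.0238). In the supplemental comparison 2 of 6 were called, where 31.7% of all probes were, both negative: GAPA at -0.26 (adjusted p = 0.0201) and gpb1 at -0.23 (adjusted p = 0.0402). Neither was called with sections centred (-0.11, adjusted p = 0.142, and -0.08, adjusted p = 0.284), where ssu1 at -0.26 (adjusted p = 0.0292) was the 1 call. Against W23 in the 3 landraces 2 of 7 were called, where 25.6% of all probes were, rca1 at 0.52 (adjusted p = 9.03e-05, positive on 12 of 12 arrays) and pdrp1 at -0.36 (adjusted p = 0.012). With sections centred both were called, and pdk1 as well at 0.24 (adjusted p = 0.0321). None of 4 was called for Confite and Mishca.

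The files hold ratios and no levels, so the labelled leaf tissue could not be checked by the level of any marker. Markers of seed (globulin-1, Globulin-2) and pollen (EXPB9) had 7 probes. Against 35% of all probes, 2 of 4 tested were called in the solar comparison, both negative, at -0.46 for globulin-1 and -0.34 for EXPB9, and both were called with sections centred. Against 31.7% of all probes, 2 of 6 were called in the supplemental comparison, Globulin-2 at 0.30 and an EXPB9 probe at 0.28. With sections centred Globulin-2 was called at 0.26, that EXPB9 probe was at 0.14 (adjusted p = 0.112), and another EXPB9 probe was called at -0.23 (adjusted p = 0.0134). In the 3 landraces 3 of 7 were called, against 25.6% of all probes, with the globulin-1 probes on opposite sides (-0.31 and 0.48) and Globulin-2 at 0.24, which was not called with sections centred (0.15, adjusted p = 0.0755). In Confite and Mishca none of 4 was called. On single solar arrays, marker probes ranged from -4.2 to 0.44, the widest being EXPB9. Their part in the results for the photosystem genes was not tested.

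Likeness was described by Pearson's r of centred log2 ratios over the distinct arrays of a table, for 352 named probes in one table and 370 in the other. These arrays share W23 RNA, section and channel effects, so r is a description. For psbs1 the closest probe was gpb1, with r = 0.91 over 23 arrays, and still 0.86 with sections centred. After sections were centred gpb1 was also closest to L-FNRI (0.74 over 24 arrays) and to pgr5 (0.75 over 23 arrays), ahead of sps1, sucrose phosphate synthase (0.70 for each), and psbs1 and pgr5 had r = 0.75 with each other over 22. For lhcb5 gpb1 (0.84) and expA4 (0.82) came first over 20 arrays, and pdk1 (0.69, listed as cyppdkZm1) and hac106 (0.66) with sections centred. The closest to ftr1 were rpot1 (0.73 over 19 arrays) and adh1 (0.60 over 20), replaced by gpm198 (0.66) and mgs2 (0.64) with sections centred, and in the same table ftr1 had no r above 0.16 with psbs1, lhcb5, psaN or pgr5 under either centring. The 2 Cab-m7 probes had r = 0.82 with each other over 21 arrays, but 0.20 with sections centred.

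The remaining closest probes changed with the centring. For psaN gst2 (0.82) and hcf106 (0.78) gave way to nac4 (0.78) and SE1B (0.63). For the first Cab-m7 probe pr5 (0.93) gave way to dxr and umc2618 (0.77 each). In the table with Conico, Arrocillo and Cacahuacintle, trm1 was closest to ftr1 (r = 0.76 over 12 arrays), where thi1-2 (0.66) came first with sections centred, and frk2 was among the 2 closest to psbs1 under both centrings (0.85 over 11 arrays, and 0.84).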

How the data were processed

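The deposited values are log2 ratios, given spot by spot for each array. Per the labels each array held RNA of 2 kinds of leaf, and the series' design text describes analysis of variance of log2 intensities by the authors; whether the deposited log2 ratios passed through it is not given in the sources used here. Blank spots were taken as missing, probes were averaged over 3 spots (median SD 0.032 and 0.037) and arrays were centred on their medians. Members, lists and tests were chosen with earlier results of these data known. Probes measured on at least 75% of arrays and on each group were fitted with limma 3.58.1 in R 4.3.3: a coefficient per line or landrace and treatment, equal weight per line, and a channel term (0 for a column deposited under both orders), with two-sided moderated tests and Benjamini-Hochberg adjustment over all probes tested within a table. Residual degrees of freedom were at most 2, 1, 5 and 2. The fit was also run on simulated data with independent noise and no section effects. That run cannot show whether the calls on these arrays are sound. In the solar and supplemental arrays the replicate number is the channel order, and deviations of same-numbered arrays correlated at 0.482 to 0.879 and at 0.661, so the channel term is also the replicate block. The Arrocillo, Cacahuacintle and Conico arrays numbered 1 all had W23 in channel 1, and the others all had the landrace there. Their deviations correlated at -0.106 to 0.75, and channel order and replicate number cannot be told apart in that table either. Gene names came from the platform annotation, which is old, and from Zm-B73-REFERENCE-NAM-5.0 symbols, which hold 314 of the 329 genes; cDNA probes can cross-hybridise within families. Every probe of a member gene is named. Pathway genes were taken from a fixed list, with values for those called, and likeness names the 2 closest named probes. The number of arrays limits precision, and no sequence was used. Alternatives are in the closing section.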

Additional observations from a re-analysis of the deposited data

Results flagged for a closer look

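In the supplemental comparison the test of differences among the 6 lines called psbs1 (adjusted p = 0.0204), the first Cab-m7 probe (adjusted p = 0.0072) and ftr1 (adjusted p = 0.0206), where 1168 of 4744 probes were called in all. In this test 4 of the 6 lines had 1 array each, so Confite and Conico alone supply the spread between arrays, and with sections centred the adjusted p of the Cab-m7 probe was 0.288. The extremes for ftr1 were Conico at 0.91 and Cacahuacintle at -0.39.

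The ftr1 probe had a mean over arrays of -0.74 over the 12 arrays of Conico, Arrocillo and Cacahuacintle against W23, and of 0.57 over 4 arrays of Mishca and Confite, with every array of one set on the other side than every array of the other. This difference was not tested, and neither table's direction is settled.

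In the solar comparison every ftr1 array of W23 lay on the other side than those of Conico (a difference of 0.32), as did those of Mishca (0.086). With sections centred the first Conico array was at 0.07, on the side of W23 and Mishca. These pairs were not tested by themselves. The test over all lines gave an adjusted p of 0.226.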

How the results depend on the processing

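Counts of members called, including any not called in the main fit, were taken again with 1 array left out. The solar count of 5 became 3 to 6 (3 without Arrocillo or the first Conico array). The supplemental count of 3 became 2 each time. Without the Mishca array ftr1 kept its call, psbs1 and L-FNRI lost theirs, and the first Cab-m7 probe was newly called. For Conico, Arrocillo and Cacahuacintle the count of 5 became 2 to 5. It was 2 without either Arrocillo array without UV-B, or the first Conico array with or without UV-B. In Confite and Mishca the count stayed at 0. Solar psbs1 and lhcb5 kept direction and call in 28 of 30 alternatives (0.27 to 0.63 and 0.18 to 0.54), supplemental ftr1 in 19 of 22, and landrace lhcb5 and ftr1 in 24 of 25 each. Not all solar and supplemental alternatives are separate fits. The replicate block there repeats the main fit, and leaving out a line with 1 array repeats the fit without that array. Member counts were 0 solar, 0 supplemental and 3 landrace with no channel term, and 0, 0 and 2 with ratios turned by channel. They were 2 solar and 1 supplemental over lines with both orders, 3 and 1 there with sections centred, and 0 and 5 supplemental with repeated columns under their first or second label. Uncentred values gave 3 landrace calls, array weights 1 in Confite and Mishca, leaving out line Arrocillo 3 solar, and leaving out Cacahuacintle or Conico 2 and 3 landrace calls. The number of all probes called moved with these settings too, and is given below for some of them. The member counts are therefore not a result about the members alone. The cause of these shifts was not tested.

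Some means changed side. With sections centred these were solar psaN -0.036 and second Cab-m7 -0.0034, supplemental lhcb5 0.047 and psaN 0.034, and landrace first Cab-m7 0.016. Over lines with both orders they were solar second Cab-m7 -0.029 and L-FNRI -0.055, and supplemental psbs1 0.27, lhcb5 0.19, psaN 0.059, first Cab-m7 0.15, second Cab-m7 0.022 and L-FNRI 0.0064. With both choices they were solar psaN -0.028, first Cab-m7 -0.028 and second Cab-m7 -0.011, and supplemental psbs1 0.24, lhcb5 0.17, psaN 0.097 and first Cab-m7 0.13. Turned by channel they were solar psaN -0.021 and ftr1 -0.035, supplemental psaN 0.0080, landrace L-FNRI -0.044, lhcb5 0.25 and psaN 0.18, and in Confite and Mishca psbs1 -0.072, first Cab-m7 0.25 and pgr5 -0.15. Under the first label they were supplemental lhcb5 0.091, first Cab-m7 0.12 and second Cab-m7 0.015. Uncentred pgr5 was -0.030 in Confite and Mishca. Leaving out a line gave solar psaN -0.0037 (W23) and -0.00053 (Conico), supplemental second Cab-m7 0.018 (Arrocillo), and first Cab-m7 0.16 against W23 (Mishca). Leaving out 1 array gave -0.134 to 0.018 for supplemental second Cab-m7 and -0.151 to 0.0091 for landrace first Cab-m7, and -0.294 to 0.020 and -0.468 to 0.0105 for first Cab-m7 and L-FNRI in Confite and Mishca.

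In the solar and supplemental fits the replicate block is the channel term with its sign changed, so its 5 and 3 calls are those of the main fit. In the landrace table the block is the channel term plus a column for the third Cacahuacintle array without UV-B. It therefore does not separate replicate from channel order, and it gave 4 calls (L-FNRI lost, 0.39, adjusted p = 0.0509). In Confite and Mishca the block in place of the channel term gave 0. There the numbers were not taken to pair arrays (deviations correlated above 0.1 for 4 of 6 pairs). In the landrace table, where they did for 18 of 20 pairs, the channel term follows the number. All probes called went from 1485 to 11 solar and from 1504 to 0 supplemental with no channel term, to 652 and 1208 uncentred, and to 0 and 0 turned by channel. Array weights gave 2290 solar calls, equal spread 879 supplemental, both orders 653 and 184, and leaving out 1 array 809 to 2567 solar and 733 to 1485 supplemental. The landrace count of 1368 was 885 with no channel term, 786 without Cacahuacintle and 783 without Conico, and that of 34 in Confite and Mishca lay between 0 and 58. Supplemental fits without a Confite or Conico array or line, and the Confite and Mishca fit without Confite, could not be run, since no residual degrees of freedom remained. Few arrays limit precision, and signal over background is not in the values used here.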
